A study of Mus musculus with 4 samples.

Results

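The Hox genes of mouse C2C12 cells, a line of immortalised myoblasts from adult thigh muscle, were examined after depletion of the histone demethylase LSD1. The members are all genes whose symbol is Hox followed by a cluster letter from a to d and a number, represented by 1 probe set each. Of 39 such genes in the mouse gene table, 33 had a probe set that carried their symbol alone, among 18193 genes measured. The other 6 were not analysed here.

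The study measured RNA on 4 Affymetrix 3' expression arrays, 2 from cells with a non-targeting hairpin (shControl) and 2 from cells with a hairpin against LSD1 (shLSD1). Every array comes from C2C12 cells that carried a hairpin plasmid as stable transfectants, were grown in 10% fetal bovine serum with 750 µg/mL hygromycin B, and were then kept in 2% horse serum, with 25 mM glucose in both media. RNA was taken 48 hours after this switch, which induces myoblasts to differentiate and fuse. The labels name no more than 1 stable selection per hairpin, so hairpin and selection cannot be told apart. They do not say that arrays of a group come from separate cultures, and the p-values then cover only array-to-array spread, possibly a technical one. The comparison asks which Hox transcripts differ in level when LSD1 is depleted during differentiation.

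Hox genes encode transcription factors that bind DNA through a homeodomain and give cells along the body axis and the limbs their regional identity. They lie in 4 clusters, and genes with the same number in different clusters are paralogues, with low numbers active towards the head and high numbers towards the tail and the ends of the limbs. Hox proteins bind many sites together with homeodomain partners of the Pbx, Meis and Prep (Pknox) families. Polycomb proteins keep clusters silent and trithorax proteins such as MLL (Kmt2a) keep them active, and cells in culture often retain the Hox pattern of the tissue they came from. LSD1, the product of Kdm1a, is an enzyme that takes methyl groups off lysines of histone H3, including a mark of active promoters.

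The arrays held the labelled knockdown and the labelled cell type. Kdm1a had signals of 4603 and 4588 in shControl replicates 1 and 2 and of 922 and 1034 in shLSD1 replicates 1 and 2, or 21.3% of the control level. All 10 muscle markers listed for the check were over the signal filter described below. Their summed signal was 128879 to 128942 in shControl and 91031 to 100975 in shLSD1. Past the threshold, a limma adjusted p under 0.05, 7 markers were lower in shLSD1 and 1 was higher. Over all tested genes 7.09% fell and 8.75% rose. The marker that rose was Myf5 (mean 1035 in shControl and 2508 in shLSD1). Those that fell were Tnnt1, Myh3, Myog, Ckm, Mef2c, Acta1 and Mymk. All 4 measured adipocyte, all 4 neuronal and all 4 endothelial and blood markers were under the filter on average, with summed signals of at most 54.8, 170.5 and 99.8 on any array. Single signals of Elavl3 (73.3, shControl replicate 2) and Rbfox3 (81.9, shLSD1 replicate 2) were over the filter. Sp7 was over it on average among 3 measured osteoblast markers (summed 114.6 to 152.7 in shControl and 96.9 to 150.1 in shLSD1). Cdh1 and Krt8 were over it among 4 epithelial markers, whose summed signal was 160.9 to 168.8 in shControl and 270.8 to 284.0 in shLSD1. Cdh1 was higher past the threshold (mean 56.0 in shControl and 145.8 in shLSD1), but both its shControl signals, 60.1 and 51.9, were under the filter. It was thus tested only because of its signals in shLSD1, and with no filter its limma adjusted p was 0.0312. Krt8 did not pass the threshold (limma adjusted p = 0.259). Krt18, under the filter, was lower on both shLSD1 arrays (31.8 and 27.9 in shControl, 22.1 and 23.0 in shLSD1). The defining marker Epcam was between 3.16 and 7.19. The part of these shifts in the Hox results was not tested, and in RNA from whole cultures fewer cells of a type and less RNA per cell cannot be told apart.

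Signals over the filter came from 13 of 16 measured Hoxa and Hoxc genes and 1 of 17 Hoxb and Hoxd genes, so promoter sequences are shown for pairs of paralogues on either side of the filter. The filter was the median of the mean log2 signal over all probe sets, 6.03, which corresponds to a signal of 65.4. Hoxa9 passed it and Hoxd9 did not, and Hoxc4 passed it and Hoxb4 did not. Each sequence is the 250 bases before the start of the gene as RefSeq gives it for GRCm38.p6, 5′ to 3′ on the gene's strand, with CpG dinucleotides in capitals. The regions are chr6:52227371-52227620 on the minus strand for Hoxa9, chr2:74697513-74697762 on the plus strand for Hoxd9, chr15:103034145-103034394 on the plus strand for Hoxc4 and chr11:96318017-96318266 on the plus strand for Hoxb4.
Hoxa9: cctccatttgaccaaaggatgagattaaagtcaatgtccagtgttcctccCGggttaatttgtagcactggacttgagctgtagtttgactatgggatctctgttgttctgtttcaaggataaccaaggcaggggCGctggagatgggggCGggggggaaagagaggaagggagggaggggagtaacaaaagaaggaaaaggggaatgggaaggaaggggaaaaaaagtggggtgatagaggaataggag
Hoxd9: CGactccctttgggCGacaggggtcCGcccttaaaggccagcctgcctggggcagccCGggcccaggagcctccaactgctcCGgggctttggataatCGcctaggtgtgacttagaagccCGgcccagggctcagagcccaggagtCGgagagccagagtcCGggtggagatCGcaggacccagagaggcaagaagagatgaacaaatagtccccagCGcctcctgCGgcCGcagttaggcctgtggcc
Hoxc4: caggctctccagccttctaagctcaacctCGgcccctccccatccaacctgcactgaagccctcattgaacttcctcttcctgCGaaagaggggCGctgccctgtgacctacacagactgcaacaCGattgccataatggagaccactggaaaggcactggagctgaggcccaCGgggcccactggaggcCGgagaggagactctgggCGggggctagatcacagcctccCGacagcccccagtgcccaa
Hoxb4: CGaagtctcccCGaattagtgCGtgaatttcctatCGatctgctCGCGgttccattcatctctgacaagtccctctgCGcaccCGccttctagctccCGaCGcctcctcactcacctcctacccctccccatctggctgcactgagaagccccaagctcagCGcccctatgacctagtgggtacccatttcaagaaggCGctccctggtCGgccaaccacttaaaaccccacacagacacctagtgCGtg

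Among the Hox genes with a sequence in the promoter table, those over and under the filter had overlapping ranges of CpG content. CpG dinucleotides in DNA are where methylation falls, and promoters rich in them are common targets of Polycomb and trithorax proteins. The Hoxa9 sequence holds 3 CpG dinucleotides and that of Hoxd9 holds 13, while Hoxc4 has 8 and Hoxb4 has 14. The lower number over the filter in these pairs was not general among paralogues with entries on both sides of it. Hoxa3, over the filter, had 18 and Hoxd3, under it, had 12. The Hoxa3 entry, at chr6:52213068-52213317, lies between those of Hoxa5 and Hoxa7, so it belongs to a distant start of that gene. The entries of Hoxa10 had 20 and 7 beside 20 for Hoxd10, and Hoxa11 had 13 beside 2 and 20 for Hoxd11. The promoter table used here, which is not complete, matched 19 of the 33 measured Hox genes, with 21 start sites. Over the filter it held 7 of 14 genes, which were the 6 Hoxa genes and Hoxc4, so the other Hoxc genes, Hoxc10 among them, and Hoxb3 are not part of these counts. The 8 entries of genes over the filter held 3 to 28 CpG dinucleotides (median 10.5), and the 13 entries of genes under it held 2 to 35 (median 13), against a median of 6 over 32841 mouse promoters. In all, 17 of the 21 Hox entries were above that median. A motif of the kind bound jointly by Hox and Pbx proteins, searched on both strands as TGATNNAT, was found in 0 of 8 entries over the filter, in 3 of 13 under it and in 7.69% of all promoters. The E-box CAGCTG, a sequence that myogenic factors can bind and whose reverse complement is itself, was in 2 of 8 entries over the filter, those of Hoxa3 and Hoxa5, in 0 of 13 under it and in 13% of all promoters. Both motifs contain TG, so a match of one can share bases with a match of the other, and a match only describes the sequence.

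The Hox genes with signal over the filter were, apart from Hoxb3, those of the Hoxa and Hoxc clusters. On chromosome 15, all 7 measured Hoxc genes passed it, and on chromosome 6 so did 6 of 9 Hoxa genes, which were Hoxa3, Hoxa5, Hoxa7, Hoxa9, Hoxa10 and Hoxa11. On chromosome 11, 1 of 9 Hoxb genes passed, which was Hoxb3, and on chromosome 2 none of 8 Hoxd genes did. Together 13 of 16 Hoxa and Hoxc genes (81.2%) and 1 of 17 Hoxb and Hoxd genes (5.88%) were tested, beside 59.8% of all measured genes. By paralogue number, 2 of 7 genes of groups 1 to 3 passed, as did 6 of 12 of groups 4 to 8 and 6 of 14 of groups 9 to 13. Probe sets differ in how strongly they bind their target, so a low signal is not proof that a gene is silent, and no order of level between genes is drawn from these values.

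**Figure D1:**
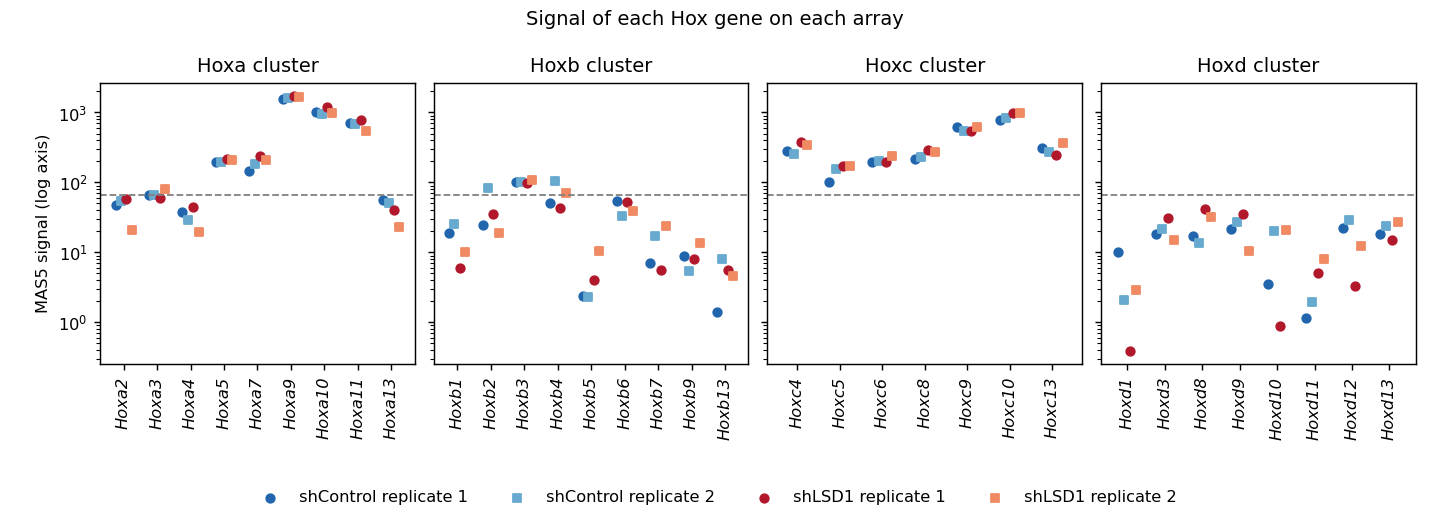
MAS5 signal (log axis) of each measured Hox gene on each of the 4 arrays, by cluster and paralogue number, with the dashed line at the filter of 65.4. All 7 Hoxc genes and 6 of 9 Hoxa genes lie over the line on average, while 8 of 9 Hoxb genes and all 8 Hoxd genes lie under it on average, with 1 array of Hoxb2 and 2 of Hoxb4 over it.

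Of the 19 Hox genes under the filter on average, 17 had all 4 signals under 60, and the other two, Hoxb2 and Hoxb4, were over the filter on some arrays. Hoxb4 gave 51.5 and 104.1 in shControl and 42.5 and 71.7 in shLSD1, so its groups overlapped, with 1 array of each group over the filter. Hoxb2 gave 24.9 and 82.5 in shControl and 35.6 and 19.2 in shLSD1, with the 2 shControl arrays further apart than the shLSD1 arrays. Both genes belong to the anterior set that patterns the hindbrain and neck.

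Among the Hoxd genes, which with Hoxa genes shape the limb skeleton, the lowest signal on any array was 0.385 (Hoxd1) and the highest 41.5 (Hoxd8). Both shLSD1 arrays were above both shControl arrays for Hoxd8, at 41.5 and 31.7 against 16.9 and 13.5, and for Hoxd11, at 5.03 and 7.92 against 1.17 and 1.93. Hoxd12 went the other way, with 3.33 and 12.3 in shLSD1 against 22.3 and 28.8 in shControl. All of these values are under the filter and were not tested with the others. A second Hoxd8 probe set gave 4.21 and 13.3 in shControl against 1.16 and 4.09 in shLSD1, the opposite direction.

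Outside the Hoxd cluster, dim genes whose arrays separated by group were Hoxb5 (2.37 and 2.33 in shControl, 3.98 and 10.4 in shLSD1), Hoxb1 (19.1 and 25.7 in shControl, 6.03 and 9.96 in shLSD1) and Hoxa13 (55.2 and 50.8 in shControl, 40.0 and 23.2 in shLSD1). Over all 19, the groups separated upward for 3 and downward for 3, beside 16.8% upward and 19% downward among all 7314 genes under the filter, a like share. When all 18193 genes were tested with no filter, none of the 33 Hox genes passed the threshold, an adjusted p under 0.05 in limma, beside 7.23% of all genes, and the smallest limma adjusted p among them was 0.0744, for Hoxc10.

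The remaining dim Hox genes had overlapping groups. Hoxa2, which patterns the second pharyngeal arch, gave 46.9 and 53.6 in shControl and 57.7 and 20.6 in shLSD1, and Hoxa4 gave 38.2 and 29.3 in shControl and 44.1 and 19.6 in shLSD1. In the Hoxb cluster, Hoxb6 gave 54.4 and 32.9 in shControl and 52.6 and 39.0 in shLSD1, and Hoxb7 gave 6.998 and 17.1 against 5.66 and 24.2. Hoxb9 and Hoxb13, the posterior Hoxb genes, were between 5.48 and 13.5 and between 1.42 and 7.99 over the 4 arrays. None of these separated by group.

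In the Hoxd cluster, Hoxd3 gave 18.4 and 21.3 in shControl and 31.0 and 15.3 in shLSD1, and Hoxd9 gave 21.6 and 27.4 against 34.9 and 10.3. Hoxd10, which acts in lumbar motor neurons, gave 3.54 and 20.1 in shControl and 0.884 and 20.9 in shLSD1. Hoxd13, a gene of digit formation, gave 17.99 and 23.5 in shControl and 14.9 and 26.9 in shLSD1, with the shLSD1 arrays on either side of the shControl arrays. Hoxd1 gave 10.3 and 2.06 in shControl and 0.385 and 2.85 in shLSD1, and its groups overlapped too.

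Of the 14 Hox genes tested, 1 rose in shLSD1, 0 fell and 13 did not pass the threshold. The background is high, since 952 of 10879 tested genes rose (8.75%) and 771 fell (7.09%), or 15.8% in either direction, and 1 of 14 Hox genes is 7.14%, which is no more than the background. At an unadjusted p under 0.05 in limma, 3 Hox genes counted, beside 31% of all tested genes. Fold changes below are log2 values of shLSD1 minus shControl, each from 2 arrays per group, with the standard error and the Benjamini-Hochberg adjusted p from limma over all 10879 genes.

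Hoxc10, which marks the lumbar region and the hindlimb in embryos, was the gene that rose. Its signal was 769 and 843 in shControl (806 ± 52.4, SD, n = 2) and 982 and 993 in shLSD1 (987 ± 8.16, SD, n = 2). Both shLSD1 arrays were above both shControl arrays. The log2 fold change was 0.29 (SE 0.08, limma adjusted p = 0.0492), a 1.23-fold rise with a 95% interval of 1.07 to 1.4. The value lies at the edge of the threshold, and the call was lost in 9 of 13 refits, among them each of the 4 fits that left out 1 array. Those 4 gave log2 fold changes of 0.23 without shControl replicate 1, 0.36 without shControl replicate 2, 0.30 without shLSD1 replicate 1 and 0.29 without shLSD1 replicate 2, with limma adjusted p from 0.0709 to 0.279. Over all 13 refits the limma adjusted p ran from 0.0326 to 0.279.

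None of the other 6 Hoxc genes passed the threshold. Hoxc4, an anterior member of the cluster active in neck and shoulder levels, gave 283 and 257 in shControl and 375 and 342 in shLSD1. The groups did not overlap, and the log2 fold change was 0.41 (SE 0.13, limma adjusted p = 0.0733), with an interval of 0.11 to 0.71. Hoxc5, its neighbour, gave 100.9 and 154.6 in shControl and 174.1 and 172.2 in shLSD1. The shLSD1 arrays were again higher, but the shControl arrays differed from each other by more than the nearer one differed from shLSD1, and the difference of 0.47 in log2 (SE 0.24, limma adjusted p = 0.233) had an interval from -0.09 to 1.03. Without shControl replicate 1 it was 0.16, and without shControl replicate 2 it was 0.78.

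Hoxc8, a regulator of thoracic identity, gave 214 and 233 in shControl and 290 and 269 in shLSD1. These groups did not overlap, and the log2 fold change was 0.32 (SE 0.14, limma adjusted p = 0.167). Hoxc6, which acts in thoracic and forelimb levels, overlapped between the groups, with 197 and 200 in shControl and 199 and 237 in shLSD1 (0.13, SE 0.16, limma adjusted p = 0.650), and the difference was 0.25 without shLSD1 replicate 1 and 0.00 without shLSD1 replicate 2. A second Hoxc6 probe set over the filter gave 0.06. The mean of its 3 probe sets, which includes one with signals of 4.67 to 38.6, gave 0.64 (limma adjusted p = 0.219).

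Hoxc9, which represses forelimb-level programmes in motor neurons, gave 619 and 547 in shControl and 540 and 610 in shLSD1. The groups overlapped fully, and the log2 fold change was -0.02 (SE 0.11, limma adjusted p = 0.921), with an interval of -0.28 to 0.23. Hoxc13, known for its role in hair and nails, gave 308 and 272 in shControl and 243 and 362 in shLSD1. The shLSD1 arrays lay on either side of the shControl arrays, and the log2 fold change was 0.03 (SE 0.20, limma adjusted p = 0.929). Over the 7 Hoxc genes the median log2 fold change was 0.29, beside 0.00 over all tested genes, and it was 0.16 without shControl replicate 1. Hoxc4, Hoxc5, Hoxc8 and Hoxc10 were higher on both shLSD1 arrays, while Hoxc6, Hoxc9 and Hoxc13 overlapped.

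**Figure D2:**
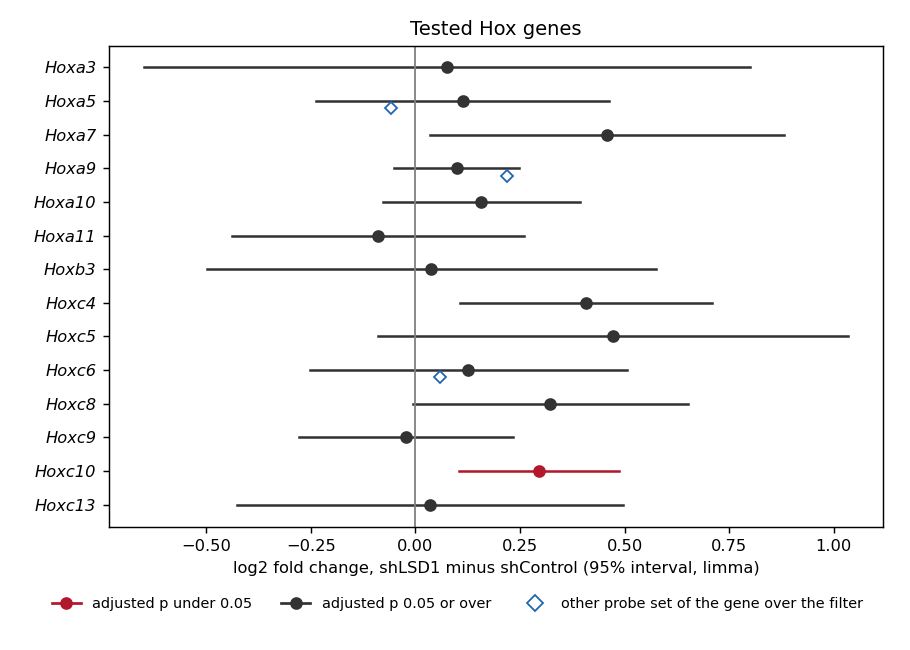
Log2 fold change, shLSD1 minus shControl, of the 14 tested Hox genes with the 95% interval from limma (2 arrays per group), and in diamonds the value of any other probe set of the gene over the filter. Hoxc10 alone has an adjusted p under 0.05, and the intervals of Hoxc10, Hoxc4 and Hoxa7 lie above 0.

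None of the 6 tested Hoxa genes passed the threshold, and their median log2 fold change was 0.11. Hoxa7, a thoracic-level gene, gave 147 and 181 in shControl and 239 and 209 in shLSD1. All shLSD1 values were higher, and the log2 fold change was 0.46 (SE 0.18, limma adjusted p = 0.134), with an interval of 0.03 to 0.88. Hoxa5, which patterns the neck, lung and sternum, gave 197 and 196 in shControl and 213 and 211 in shLSD1, which is 0.11 in log2 (SE 0.15, limma adjusted p = 0.661). Its groups did not overlap, while a second probe set of the type prone to cross-hybridisation gave -0.06.

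Hoxa9, a posterior gene that MLL fusions keep active in leukaemia, gave 1544 and 1612 in shControl and 1721 and 1657 in shLSD1. Both shLSD1 values were higher, by 0.10 in log2 (SE 0.06, limma adjusted p = 0.344), and the interval ran from -0.05 to 0.25. A second Hoxa9 probe set gave 487 and 461 in shControl and 559 and 543 in shLSD1, or 0.22 in log2 (SE 0.10, limma adjusted p = 0.209 when every probe set was tested on its own).

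Hoxa10 gave 1007 and 945 in shControl and 1193 and 992 in shLSD1. Replicate 2 of shLSD1 fell between the shControl arrays, so the groups overlapped, and the log2 fold change was 0.16 (SE 0.10, limma adjusted p = 0.338). Without that array the value was 0.29 and passed the threshold (limma adjusted p = 0.0496), and without shLSD1 replicate 1 it was 0.02. Hoxa11, which specifies the middle limb segment, gave 706 and 680 in shControl and 769 and 552 in shLSD1. The shLSD1 arrays lay on either side of the shControl arrays, and the difference of -0.09 in log2 (SE 0.15, limma adjusted p = 0.733) became 0.15 without shLSD1 replicate 2 and -0.33 without shLSD1 replicate 1. The antisense transcript of the locus, Hoxa11os, chosen after its values were seen, gave 687 and 734 in shControl and 770 and 656 in shLSD1, a difference of 0.00 (SE 0.11, limma adjusted p = 0.995 when every probe set was tested on its own).

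Hoxa3 and Hoxb3, which pattern the pharyngeal arches and hindbrain, were the tested genes of paralogue groups 1 to 3. Hoxa3 lay at the filter itself, with 65.6 and 65.9 in shControl and 59.4 and 80.8 in shLSD1, and its log2 fold change was 0.08 (SE 0.31, limma adjusted p = 0.897). Hoxb3 gave 100.5 and 99.9 in shControl and 97.1 and 109.0 in shLSD1, or 0.04 in log2 (SE 0.23, limma adjusted p = 0.933). Both genes had overlapping groups, and the Hoxa3 interval, -0.65 to 0.80, is the widest of the 14 tested Hox genes.

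Most tested Hox genes had a small positive difference. The log2 fold change was above 0 for 12 of 14, against 5533 of 10879 tested genes, and the median was 0.12 beside 0.00 over all tested genes. Both shLSD1 arrays were above both shControl arrays for 7 of 14 Hox genes and below them for 0, where 30.7% of all tested genes were above, 29.4% below and 60.1% one or the other. No test was made of the list, and these counts describe only members that passed the filter. In the fit with no filter, the Hox genes under it lay on both sides of 0, from -1.98 (Hoxd12) to 2.07 (Hoxd11). With quantile normalization 11 of 14 were above 0 and the median was 0.09, and with median centring 12 of 14 and 0.10. Leaving out 1 array at a time gave 10 to 13 of 14, with a median of 0.26 without shLSD1 replicate 1 and of 0.12 to 0.14 without any one of the other arrays. By paralogue number, the 6 tested genes of groups 4 to 8 had a median of 0.37 and all were positive, the 6 of groups 9 to 13 had a median of 0.07 with 4 positive, and the pair of groups 1 to 3 had a median of 0.06. Single arrays moved these medians. Without shControl replicate 1 that of groups 4 to 8 was 0.21. For groups 9 to 13 it was 0.03 without shControl replicate 2 and 0.14 without shLSD1 replicate 2. For groups 1 to 3 it was 0.21 without shLSD1 replicate 1 and -0.09 without shLSD1 replicate 2. The difference between these groups was not tested.

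**Figure D3:**
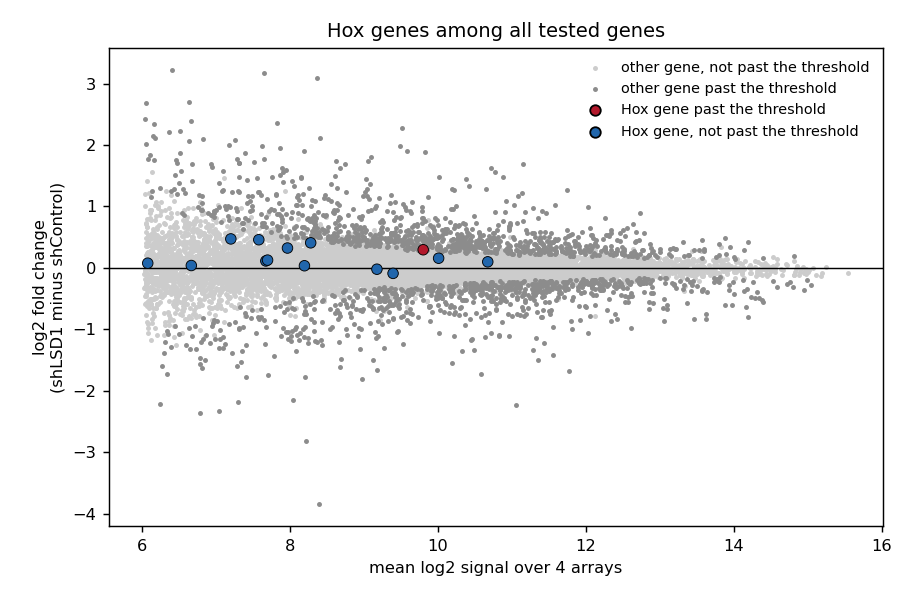
Log2 fold change, shLSD1 minus shControl, against mean log2 signal over 4 arrays for all 10879 tested genes, with the 14 Hox genes in colour. The Hox genes lie between -0.09 and 0.47, and Hoxc10 is the one past the threshold.

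The intervals describe array-to-array spread for 1 probe set per gene and do not bound the effect of LSD1 depletion. For 13 of 14 tested Hox genes the 95% interval stayed within 1 log2 unit of 0, and for 7 it stayed within 0.5. The exception to the first bound was Hoxc5, with an upper limit of 1.03, and the lowest lower limit was -0.65, for Hoxa3. In the fit as reported, 10.9% of all tested genes differed by at least 0.5 in either direction. None of the 14 tested Hox genes did, with Hoxc5 at 0.47 and Hoxa7 at 0.46 the largest, and a departure from that share was not tested. Some refits went over 0.5. Without shControl replicate 2, Hoxc5 was at 0.78 and Hoxa7 at 0.61, and Hoxc6 was at 0.64 when its probe sets were averaged.

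**Figure D4:**
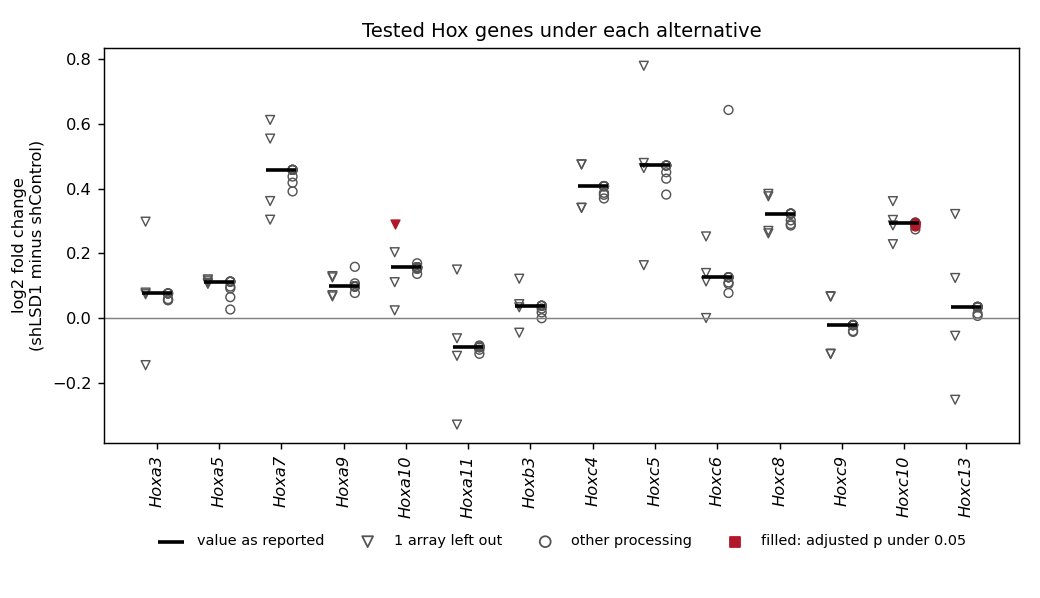
Log2 fold change, shLSD1 minus shControl, of each tested Hox gene as reported (bar), in the fits that leave out 1 array (triangles) and under the other processing (circles), filled where the adjusted p was under 0.05. Hoxc10 ranged from 0.23 to 0.36 and passed in 4 of 13 refits, Hoxa10 passed in 1, and Hoxa3, Hoxa11, Hoxb3, Hoxc9 and Hoxc13 changed sign in at least 1.

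Pbx3 fell and Meis2 and Pknox1 rose among the genes for Hox cofactors. Of 8 measured cofactor genes 7 were tested, of which 2 rose, 1 fell and 4 did not pass, with a median of 0.19. Over all tested genes 8.75% rose and 7.09% fell, and no test was made of the list of 7. Pbx3, a homeodomain partner that binds beside Hox proteins, had signals of 1325 and 1235 in shControl and 731 and 682 in shLSD1. Both shLSD1 values were far below the shControl values, at 55.2% of control (log2 fold change -0.86, SE 0.08, limma adjusted p = 7.89e-04). A second Pbx3 probe set gave -0.41 (SE 0.10, limma adjusted p = 0.0353 when every probe set was tested on its own), and the call held in all 13 refits, with values from -0.91 to -0.63.

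Meis2, a partner of posterior and anterior Hox proteins alike, gave 854 and 845 in shControl and 1288 and 1108 in shLSD1. It rose by 0.49 (SE 0.09, limma adjusted p = 0.0104), and its other 3 probe sets gave 0.43, 0.73 and 0.53. Pknox1, which encodes Prep1, a partner of Pbx proteins, gave 448 and 449 in shControl and 637 and 583 in shLSD1. It rose by 0.44 (SE 0.10, limma adjusted p = 0.0219), with 0.19 and 0.40 from its other probe sets. Neither Meis2 nor Pknox1 passed without shControl replicate 1 (0.50 and 0.44), when shControl replicate 2 was dropped (0.48 and 0.44) and in the fit with no trend (limma adjusted p = 0.0700 and 0.0574). The Pknox1 call was also lost without shLSD1 replicate 1 (0.38) and when its probe sets were averaged (0.35). Limma adjusted p ran from 0.00112 to 0.0824 for Meis2 and from 0.0129 to 0.129 for Pknox1 over the 13 refits.

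Meis1, a cofactor of Hoxa9 in blood, gave 193 and 221 in shControl and 251 and 265 in shLSD1, or 0.32 in log2 (SE 0.15, limma adjusted p = 0.201). Pbx2 was at -0.14, Pknox2 at -0.19 and Meis3 at 0.19, and none of them passed. Pbx4 was under the filter, with 26.6 and 6.01 in shControl and 63.7 and 47.3 in shLSD1.

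Among genes for chromatin regulators of the Hox clusters, Cbx6, Rbbp4 and Psip1 rose. Of 40 measured, 37 were tested, of which 3 rose (8.11%) and 0 fell, with a median of 0.02, beside 8.75% and 7.09% of all tested genes. At an unadjusted p under 0.05 in limma the count was 8 (21.6%), beside 31% of all tested genes. Cbx6, a Polycomb chromodomain gene, gave 1742 and 1729 in shControl and 2473 and 2418 in shLSD1, a rise of 0.49 (SE 0.06, limma adjusted p = 1.57e-03), and its second probe set gave 0.53. Its call held in all 13 refits.

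Rbbp4, a histone-binding subunit of Polycomb repressive complex PRC2 and of deacetylase complexes, rose by 0.50 (SE 0.07, limma adjusted p = 2.76e-03), but its other 3 probe sets gave 0.01, 0.03 and -0.15, and its mean over probe sets was 0.10 (limma adjusted p = 0.321). Psip1, whose protein LEDGF tethers MLL to chromatin, rose by 0.43 (SE 0.09, limma adjusted p = 0.0135), with 0.14 and -0.10 from its other probe sets. Its call was lost without shControl replicate 1 (0.33), when its probe sets were averaged (0.16) and in the fit with no trend, where the Rbbp4 call was lost too. Closest to the threshold without passing were Gmnn, whose protein geminin restrains DNA replication, at 0.28 (SE 0.08, limma adjusted p = 0.0577), and the Polycomb gene Cbx7 at 0.52 (SE 0.17, limma adjusted p = 0.0773). Rnf2, the ubiquitin ligase of PRC1, was at -0.18 (SE 0.06, limma adjusted p = 0.0822) and Men1, an MLL partner, at 0.29 (SE 0.10, limma adjusted p = 0.0867). Ezh2, the catalytic subunit of PRC2, was at 0.13 (SE 0.07, limma adjusted p = 0.255), Suz12 at 0.02 (SE 0.07), Eed at -0.14 (SE 0.06, limma adjusted p = 0.176), Bmi1 at -0.13 (SE 0.06, limma adjusted p = 0.178) and Kmt2a at 0.05 (SE 0.11, limma adjusted p = 0.781). The upstream activators Cdx1, Cdx2 and Cdx4 were all under the filter, with signals of at most 40.4.

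Snx10 had the largest difference among the tested Hox genes and their neighbours. Of 38 measured flanking genes, taken as the 5 nearest protein-coding genes on each side of each cluster, 30 were tested, of which 2 rose, 2 fell and 26 did not pass, with a median of 0.03. These 4 calls are 13.3% of the flanking genes tested, beside 15.8% of all tested genes. Snx10, a sorting nexin gene located 2 genes beyond the anterior end of the Hoxa cluster, gave 405 and 390 in shControl and 873 and 882 in shLSD1, a 2.21-fold rise (log2 1.14, SE 0.09, limma adjusted p = 3.91e-04). Its second probe set was under the filter, at 67.7 and 53.3 in shControl and 58.7 and 69.7 in shLSD1, and with the mean of both the call was lost (0.62, limma adjusted p = 0.0677). Skap2, which lies between Snx10 and the cluster, measured 0.04 (SE 0.07, limma adjusted p = 0.749).

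The other flanking calls were small. Nfe2l2, the gene of the antioxidant regulator NRF2, beyond the Hoxd cluster, rose by 0.29 (SE 0.05, limma adjusted p = 8.87e-03). Copz2, a coatomer gene beyond Hoxb, fell by 0.28 (SE 0.06, limma adjusted p = 0.0155), and Hibadh, an enzyme gene of valine breakdown beside Hoxa, fell by 0.23 (SE 0.06, limma adjusted p = 0.0410). Nfe2l2, Copz2 and Hibadh each lost their call without shControl replicate 1 (0.32, -0.26 and -0.17 in that order), in the fit that dropped shControl replicate 2 (0.26, -0.30 and -0.28) and in the fit with no trend. The Hibadh call was also lost without shLSD1 replicate 1 (-0.21) and with no filter, and averaging probe sets ended those of Nfe2l2 (0.15) and Hibadh (-0.16). Evx2, a homeobox gene next to Hoxd13, measured 0.15 (SE 0.30, limma adjusted p = 0.775), and Evx1, next to Hoxa13, was under the filter, with signals of 4.71 to 15.8.

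**Figure D5:**
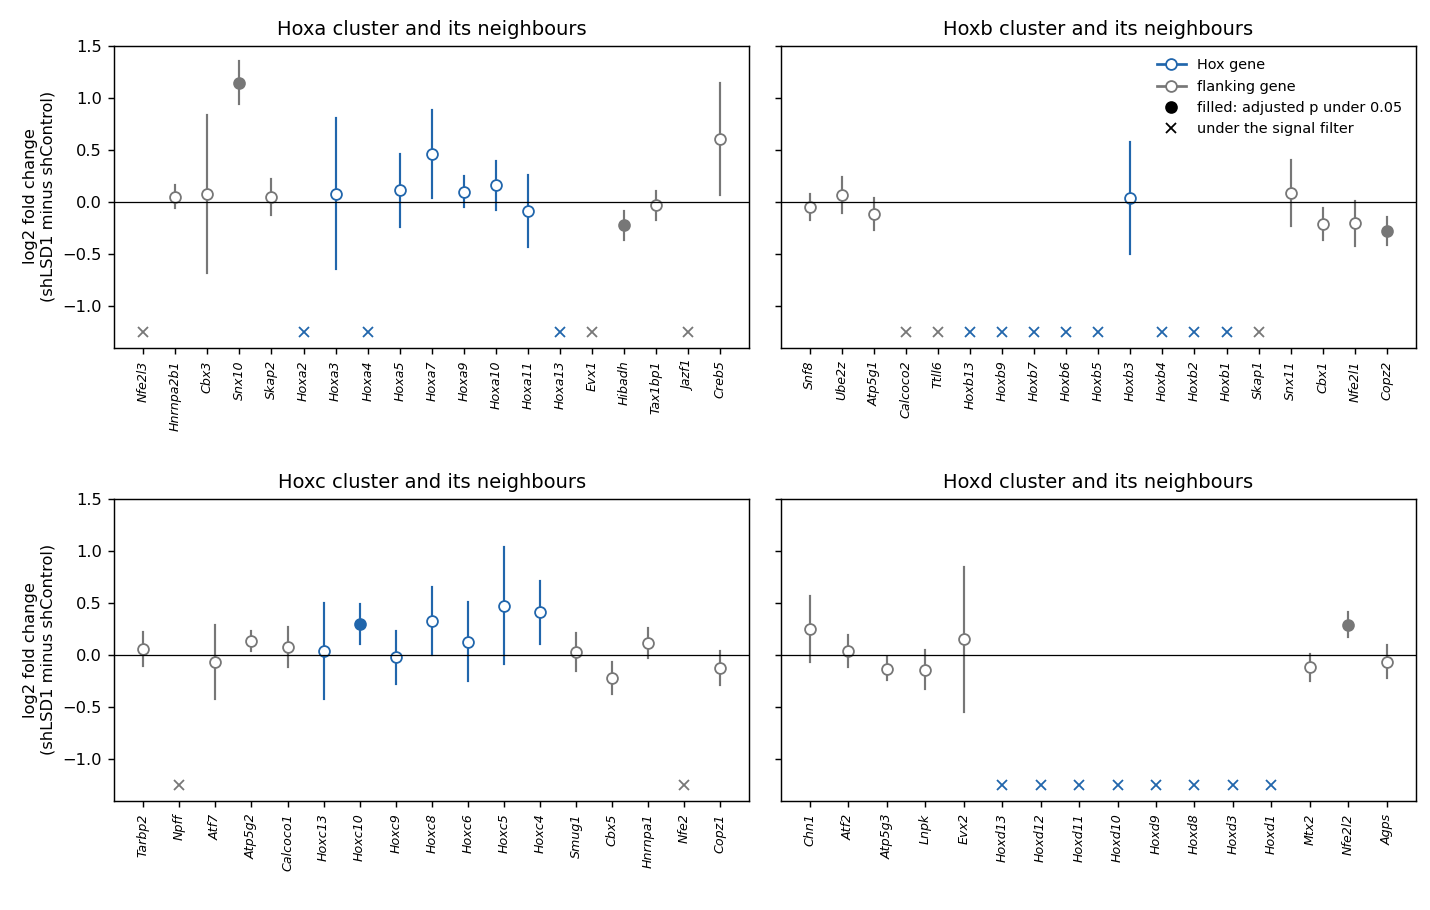
Log2 fold change, shLSD1 minus shControl, with 95% interval for the tested Hox genes and the 5 nearest protein-coding genes on each side, in gene order along the chromosome. Crosses mark genes under the filter, and genes that were not analysed are not drawn. Snx10 beside the Hoxa cluster stands at 1.14, while Hoxc10 at 0.29 is the one filled Hox gene.

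Of 7 listed noncoding RNAs of the clusters, 1 had a usable probe set, which was Hoxb5os, at 25.3 and 49.6 in shControl and 11.6 and 36.2 in shLSD1, under the filter on every array. Hoxd3os1, named here after its values were seen, was likewise dim, with 7.80 and 33.6 in shControl and 32.9 and 30.6 in shLSD1.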

How the data were processed

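The authors deposited 1 linear signal intensity for each probe set, made with MAS5 and Affymetrix Expression Console per the submitters' processing notes, which give no version. The mean after trimming 2% at each end was 500.0 on every array in the deposited values. Median signals were 67.1 to 69.4, and 505 to 704 signals per array under 1 were set to 1 before log2. Of 45101 probe sets, 34945 had 1 symbol, 932 several and 9160 none in GEO's platform annotation, besides 64 controls. A gene was represented by the probe set with the highest mean log2 signal, avoiding the _x_at type where possible. Genes over the median signal of all probe sets (10879 of 18193) were tested with limma 3.58.1 in R 4.3.3 (lmFit, eBayes with intensity trend, 7.54 degrees of freedom), two-sided, Benjamini-Hochberg threshold 0.05. The number of arrays limits the precision.

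Named are Kdm1a, every measured Hox gene, and all cofactors, and from the lists of chromatin regulators and flanking genes those past the threshold and up to 4 with the smallest adjusted p. Skap2, Evx1, Evx2, Suz12, Ezh2, Eed, Bmi1, Kmt2a and the Cdx genes were named besides, after their values were seen. The members and lists were chosen with earlier results of these data known. Gene order came from RefSeq (GRCm38.p6). The method was tested on simulated data with independent noise whose spread was a smooth function of mean signal. This is what the intensity trend assumes, so the simulation does not test the choice of trend. Alternatives tried were leaving out each array, the replicate number as a block, quantile or median scaling, log2(signal + 32), no filter or one at the 75th percentile, no trend, robust variance, other probe set rules and other thresholds. Figures were drawn with matplotlib 3.10.9.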

Additional observations from a re-analysis of the deposited data

How the results depend on the processing

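The counts of calls changed strongly with the array left out and with the variance model. A fit without a shControl array takes its spread from the shLSD1 arrays alone. Its fold changes are taken against the 1 shControl array that is left. Spread and reference therefore both differ in such a fit, and its count cannot tell them apart. As reported, 952 genes rose and 771 fell, with 1 Hox gene higher and 0 lower, 2 and 1 cofactors, 3 and 0 chromatin regulators, and 2 and 2 flanking genes. Leaving out 1 array at a time gave 349 to 1151 genes higher and 228 to 1041 lower, 0 to 1 Hox genes higher, 0 to 2 cofactors higher, 0 to 1 regulators lower, and 1 to 4 flanking genes higher and 0 to 4 lower. The lowest counts of all genes were those without either shControl array (352 and 228 without replicate 1, 349 and 233 without replicate 2), and without shLSD1 replicate 2 the 1 Hox gene called was Hoxa10, not Hoxc10. With no intensity trend 375 genes rose and 262 fell, with 0 Hox genes, 0 cofactors, 1 regulator and 1 flanking gene higher and 0 flanking genes lower. Averaging a gene's probe sets gave 494 and 407 genes, with 0 Hox genes, 1 cofactor, 1 regulator and 0 flanking genes higher and 1 flanking gene lower. Quantile normalization gave 941 genes higher and 787 lower, with 0 Hox genes higher. Median centring gave 846 and 897 genes, with 0 Hox genes higher and 4 flanking genes lower. No filter gave 722 and 593 genes, with 0 Hox genes higher and 1 flanking gene lower. Testing every probe set gave 1283 probe sets higher and 1074 lower, with 0 Hox probe sets higher, 2 cofactor probe sets lower and 1 regulator probe set lower. At an adjusted p under 0.1, 1437 genes rose and 1159 fell, with 2 Hox genes and 6 regulators higher, and 2 regulators and 4 flanking genes lower. With a difference of at least 0.5 also required, 456 rose and 333 fell, with 0 Hox genes, 0 cofactors, 0 regulators and 1 flanking gene higher and 0 flanking genes lower. The cause of these differences in count was not tested. Some of the alternatives also change the threshold, the number of features or the number of arrays.

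Replicate numbers are shared by the groups, but nothing in the labels says that they pair the samples, and deviations of replicate 1 from the group means correlated at 0.00287 between the groups over the tested genes. With the replicate number as a block, 1236 genes rose and 984 fell, with 1 Hox gene higher and 4 flanking genes lower. With 2 arrays per group a permutation test of 1 gene cannot go below a two-sided p of 0.333. Over the single genes named in these comparisons, 276 values under the alternatives kept their direction and side of the threshold or were not called to begin with, 36 lost their call and 1 gained one. The 19 Hox genes under the filter, which is a cut on signal and not a detection call, were left out of the main test. None of them passed the threshold in the fit with no filter, and little can be said of them from these arrays.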
